A study of Mus musculus with 2 samples.

Results

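Mir126a, Mir221 and Mir222 are 3 microRNA (miRNA) genes known from blood vessels, and here they were followed in the neural tube of mouse embryos. They were identified by Ensembl identifier among 1973 miRNA genes measured by small RNA sequencing, and all 3 had a row in both libraries. The neural tube is the embryonic structure that becomes the brain and spinal cord. Tissue came from strain B6NCrl at embryonic day 11.5, healthy and of mixed sex, and no treatment or second group was included. Replicate 1 pooled 109 embryos and replicate 2 pooled 88 embryos. Each pool gave 1 library of RNA under 30 nt. The level of a gene is its reads on its own strand per 1000000 own-strand reads of all miRNA genes (CPM).

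miRNAs are short RNAs that pair with messenger RNAs, mainly through bases 2 to 8 (the seed), and lower their output. miR-126 is known as an endothelial miRNA. It supports vessel growth and integrity by repressing Spred1 and Pik3r2, which restrain signalling from the growth factor VEGF. miR-221 and miR-222 repress Kit, the receptor for stem cell factor, and the cell cycle inhibitor Cdkn1b. They are known from endothelial cells, where they restrain vessel formation, and from vascular smooth muscle, where they favour growth. Both are also made in other cell types.

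The mature sequences of the 3p arms bear on which of these genes could share targets and whether their reads could be told apart. RefSeq (GRCm38.p6) gives these 3p arms, 5′ to 3′, with the seed in capitals:

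miR-126a-3p: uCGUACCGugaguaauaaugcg

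miR-221-3p: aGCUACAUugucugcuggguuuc

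miR-222-3p: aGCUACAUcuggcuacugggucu

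miR-221-3p and miR-222-3p have the same seed. They share their first 8 bases, which is also the longest run they share, and 11 of 23 positions hold the same base when the sequences are set side by side without gaps. The only other entry with this seed among 1738 mature miRNAs of the RefSeq table was miR-1928 of Mir1928, and that gene had 0 counts in both libraries, which allows up to 0.809 CPM in replicate 1 and 0.740 CPM in replicate 2. No other entry shared the seed of miR-126a-3p. Against the 2201 other hairpins of GENCODE M21, the longest run on the same strand was 11 bases for Mir126a, 12 for Mir221 and 12 for Mir222. No other hairpin held any of the 3 mature sequences whole.

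The hairpins show how the genes lie. In each, capitals mark the mature arms that the RefSeq table lists. Mir126a (ENSMUSG00000065540.1) occupies chr2:26591357-26591429 on the plus strand of GRCm38, the assembly also called mm10. It lies inside Egfl7, a gene of a protein secreted by endothelial cells, on the same strand. Of the 9 Egfl7 transcripts that span it, 8 place it in an intron, and 1, annotated as a retained intron, places it in an exon. It also lies in an intron of the overlapping gene Gm20532.

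Mir126a: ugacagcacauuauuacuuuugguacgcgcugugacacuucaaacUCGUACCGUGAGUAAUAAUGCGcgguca

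Mir221 (ENSMUSG00000065422.1) at chrX:19146294-19146388 and Mir222 (ENSMUSG00000065471.1) at chrX:19146893-19146971 lie 504 bases apart on the minus strand, with no annotated host gene. No other miRNA gene lies within 10 kb of them.

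Mir221: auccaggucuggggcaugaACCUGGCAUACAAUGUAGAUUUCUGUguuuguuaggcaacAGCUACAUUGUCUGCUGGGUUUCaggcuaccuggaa

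Mir222: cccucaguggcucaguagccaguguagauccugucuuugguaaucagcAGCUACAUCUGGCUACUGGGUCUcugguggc

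Libraries were of similar depth, with 3708662 own-strand miRNA counts in replicate 1 and 4055883 in replicate 2. These formed 43.5% and 53.0% of all reads. Reads with several mapping places, which entered no gene's count, formed 25.2% and 27.3%. The 10 listed neural miRNA genes with a row summed to 0.872% and 0.752% of counts. With no other tissue to compare, this sum does not test the tissue label. Highest was the progenitor miRNA gene Mir92b at 5250 and 4708 CPM. Mir137, which acts in neuronal differentiation, followed at 2169 and 1761 CPM. The 3 copies of the neuronal Mir124a stood at 1.23 to 11.9 CPM. Of these 10 genes, 7 share a run of at least 20 bases with another hairpin, so their reads may be among those mapped to several places.

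Mir126a was one of the most abundant miRNA genes of the tissue. It held 92514 counts in replicate 1 and 90456 in replicate 2, which is 24945 CPM (95% exact Poisson interval 24785 to 25107) and 22302 CPM (22157 to 22448). About 1 in 40 counts of replicate 1 and 1 in 45 of replicate 2 came from this gene. Its mean was 23624 ± 1869 CPM (SD, n = 2), and it ranked 8 of 1973 genes in each library. Genes that lose reads with several mapping places may stand too low in this order. The gene above Mir126a in the order of mean level, Mir130a (27112 and 27120 CPM), was higher in both libraries. Mir99b just below (22489 and 21350 CPM) overlapped its range, and was the only gene that did. Mir30e, next at 19352 and 16922 CPM, was lower in both. Mir99b, Mir130a and Mir30e were also the 3 genes nearest to Mir126a in log2(CPM + 1) over the 2 libraries, at distances of 0.162, 0.307 and 0.541.

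Mir221 stood far lower. It had 752 counts in replicate 1 and 762 in replicate 2, or 203 CPM (exact Poisson interval 189 to 218) and 188 CPM (175 to 202). Its mean was 195 ± 10.5 CPM (SD, n = 2), at rank 168 in replicate 1 and 161 in replicate 2. The ranges of 17 other genes overlapped its own, and 1799 of all genes were lower in both libraries. Nearest to it were Mir9-3 (200 and 200 CPM), Mir200b (214 and 202 CPM) and Mir485 (187 and 179 CPM), at distances of 0.0954, 0.131 and 0.134. Mir9-3, a copy of the neural Mir9, shares a run of at least 20 bases with its other copies, so its counts are less certain than those of Mir221.

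Mir222 was the lowest of the 3. It had 375 counts in replicate 1 and 318 in replicate 2, or 101 CPM (exact Poisson interval 91.1 to 112) and 78.4 CPM (70.0 to 87.5). Its mean was 89.8 ± 16.1 CPM (SD, n = 2), at ranks 210 and 207. The ranges of 34 other genes overlapped its own. Nearest to it were Mir29c (99.5 and 75.9 CPM), Mir138-2 (97.3 and 76.9 CPM) and Mir345 (103 and 84.1 CPM), at distances of 0.0510, 0.0607 and 0.104. Mir29c and Mir138-2 share runs with other hairpins, so their counts are less certain.

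**Figure D1:**
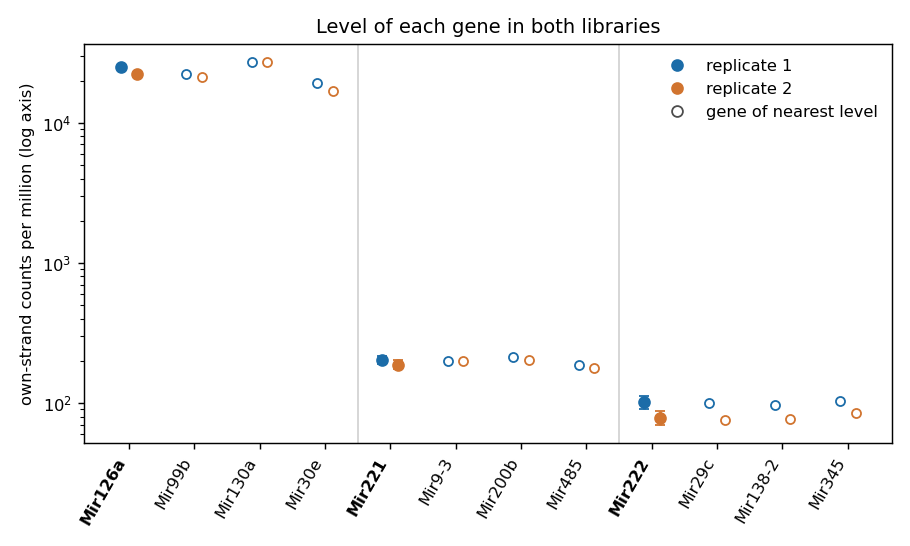
Own-strand CPM on a log axis for Mir126a, Mir221 and Mir222 (filled points, bars for the 95% exact Poisson interval) and the 3 genes nearest in level to each (open points), in replicate 1 (blue) and replicate 2 (orange). Mir126a lies at 22302 to 24945 CPM, Mir221 at 188 to 203 CPM and Mir222 at 78.4 to 101 CPM, and these ranges do not overlap.

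The order of the 3 genes was the same in both libraries. Mir126a had 123 counts for each count of Mir221 in replicate 1 and 119 in replicate 2. For each count of Mir222 it had 247 and 284. Counting intervals of the first ratio overlapped between libraries (115 to 132 and 111 to 128), as did those of the second (223 to 274 and 255 to 319). Hairpin genes are of similar size and each is read as a mature miRNA, so no length correction was made. Unequal capture of different miRNAs during library preparation was not tested. The 2 arms of a hairpin were counted together. In bulk tissue, fewer cells of a type and less RNA per cell cannot be told apart.

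Mir221 exceeded its neighbour Mir222 in both libraries, by 2.01-fold in replicate 1 (95% exact binomial interval 1.77 to 2.28) and by 2.40-fold in replicate 2 (2.10 to 2.74). The mean ratio was 2.20 ± 0.276 (SD, n = 2). The ratio in replicate 2 was 1.19 times that in replicate 1 (95% exact interval 0.994 to 1.44). This difference did not pass a two-sided Fisher's exact test of gene by library (p = 0.0541, Benjamini-Hochberg adjusted p = 0.0854 over 104 pairs of adjacent miRNA genes within 10 kb on the same strand). Among these pairs 61 passed at 0.05, or 58.7%. On the log2 scale the ratio differed by 0.31 between libraries in the median pair, regardless of sign. It differed by -0.26 for Mir221 over Mir222 in replicate 1 relative to replicate 2, and 39 pairs differed by less.

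Scaled by own-strand totals, all 3 genes were higher in replicate 1, but the order between libraries depended on the scaling. Each gene's split of counts between libraries was set against the split of the totals by a two-sided exact binomial test. Its p-values were adjusted by Benjamini-Hochberg over the 444 genes whose counts summed to at least 10. The test speaks of this pair of libraries and of no condition, and PCR copies, which it treats as separate reads, lower its p-values. Of the 444 genes, 53.2% passed at 0.05, 45.3% as higher in replicate 1 and 7.88% as higher in replicate 2. Against this background, 2 of the 3 genes passed, both as higher in replicate 1, which does not set them apart from the rest.

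In replicate 1 Mir126a exceeded its level in replicate 2 by 1.12-fold (95% interval 1.11 to 1.13, adjusted p = 1.33e-125 by the exact binomial test), a difference that was 1.09-fold in favour of replicate 2 with TMM factors (exact binomial adjusted p = 7.14e-77). The TMM factors of edgeR rest on the trimmed mean of gene ratios. With such a deep count the interval is narrow, and a small difference passes in either direction. Mir222 was 1.29-fold higher in replicate 1 (1.11 to 1.50, exact binomial adjusted p = 0.00219), and 1.06-fold with TMM factors (0.907 to 1.23, exact binomial adjusted p = 0.650). Mir221 had 1.08-fold more in replicate 1 and did not pass (0.975 to 1.20, exact binomial adjusted p = 0.228), whereas with TMM factors replicate 2 exceeded replicate 1 by 1.13-fold (exact binomial adjusted p = 0.0421). Over all alternatives, the adjusted p of Mir221 ranged from 0.0421 to 0.346 and that of Mir222 from 0.00150 to 0.650.

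TMM scaling moved the median log2 ratio of tested genes by -0.29, from 0.27 to -0.02. With it, 39.9% of the 444 genes passed, 18.2% as higher in replicate 1 and 21.6% as higher in replicate 2. Relative to the median gene, Mir126a lay at -0.11, Mir221 at -0.16 and Mir222 at 0.10 on the log2 scale. A lower log2 ratio than that of Mir126a was seen in 40.5% of tested genes, than that of Mir221 in 33.3% and than that of Mir222 in 61.0%, which places all 3 within the bulk of genes.

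**Figure D2:**
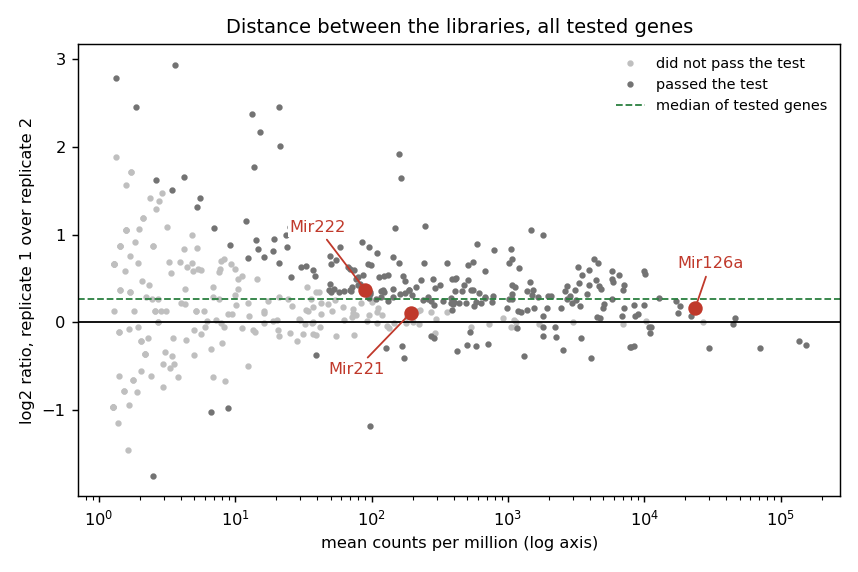
The log2 ratio of replicate 1 over replicate 2 against mean CPM (log axis) for the 444 tested genes, scaled by own-strand totals, with genes that passed the exact binomial test in dark grey and the 3 vascular genes in red. The dashed line is the median of tested genes at 0.27, and the 3 genes lie at 0.16 (Mir126a), 0.11 (Mir221) and 0.37 (Mir222), where the sign of Mir126a and Mir221 turns with TMM factors.

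**Figure D3:**
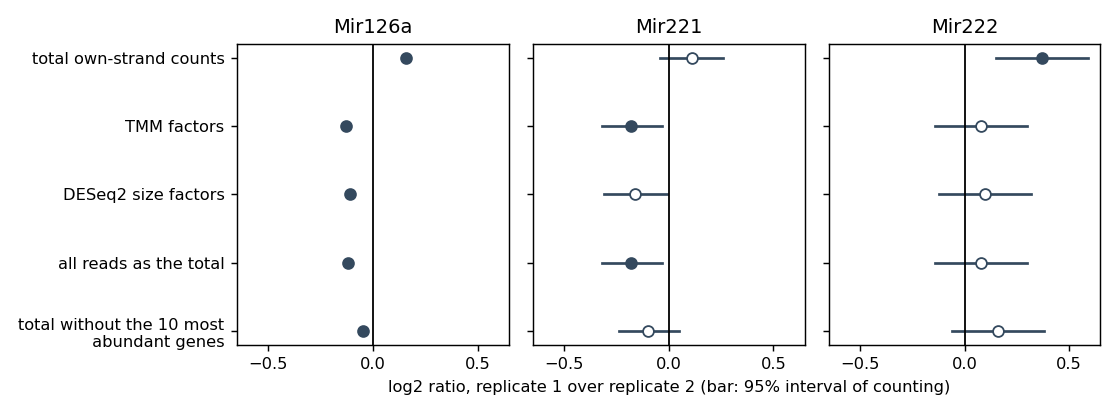
The log2 ratio of replicate 1 over replicate 2 for each gene under 5 scalings, with bars for the 95% counting interval and filled points where the exact binomial test passed after adjustment. Mir126a and Mir221 lie right of 0 with own-strand totals and left of 0 under the other 4 scalings, while Mir222 stays right of 0 at 0.08 to 0.37.

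Few reads came from the strand opposite Mir126a, where Mir126b is annotated. Mir126b had no row used here, and its hairpin at chr2:26591363-26591420 on the minus strand is read from the opposite-strand counts of Mir126a. Its sequence, with both mature arms in capitals, is the reverse complement of part of Mir126a:

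Mir126b: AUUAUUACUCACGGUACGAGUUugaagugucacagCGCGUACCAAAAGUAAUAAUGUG

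miR-126b-5p: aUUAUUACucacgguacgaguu

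miR-126b-3p: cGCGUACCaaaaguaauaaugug

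All 58 bases of the Mir126b hairpin lie opposite Mir126a, and miR-126b-5p covers 19 of the positions of miR-126a-3p. The 2 products have different seeds, shown in capitals in the mature sequences, so a read's strand decides which miRNA it is. Opposite-strand reads numbered 4 in replicate 1 and 7 in replicate 2. These are 0.00432% of the reads at the locus (95% Wilson interval 0.00168 to 0.0111) and 0.00774% (0.00375 to 0.0160), or 1.08 and 1.73 CPM. Own-strand reads exceeded them by 23128-fold and 12922-fold. The share did not differ detectably between libraries by a two-sided Fisher's exact test (p = 0.383, adjusted p = 0.547 over the 10 genes with at least 10 counts on each strand, of which 10% passed). Mir221 and Mir222 had 0 opposite-strand reads in both libraries, which allows a share of up to 0.399% and 0.394% for Mir221 and up to 0.800% and 0.943% for Mir222.

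Small as it was, the opposite-strand share of Mir126a exceeded that of each of the other 11 genes with at least 100000 summed own-strand counts. Over both libraries it was 0.00601%, from 11 reads. The others ranged from 0 to 0.00111%, with a median of 0. Among them, Mir30e also has a miRNA gene, Mir30f, annotated on its other strand, and had 0 opposite-strand reads. Among genes with another miRNA gene annotated on their other strand, by contrast, the share of Mir126a was low. Of 28 other such genes with at least 10 reads on both strands together, 20 had a higher share and 8 had no opposite-strand read. The share was under 1% in 6 of the 20, from Mir219a-2 at 0.00913% to Mir219a-1 at 0.657%. It lay between 1.45% (Mir24-2) and 13.4% (Mir3074-1, opposite Mir24-1) in 3, and was at least 99.8% in 11, where nearly all reads came from the antisense gene. At 9 of these loci the opposite strand held more reads than Mir221 or Mir222 in both libraries, and such genes have no place in the ranks given above. With 11 reads at Mir126a, and no test between genes, these values are a description.

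**Figure D4:**
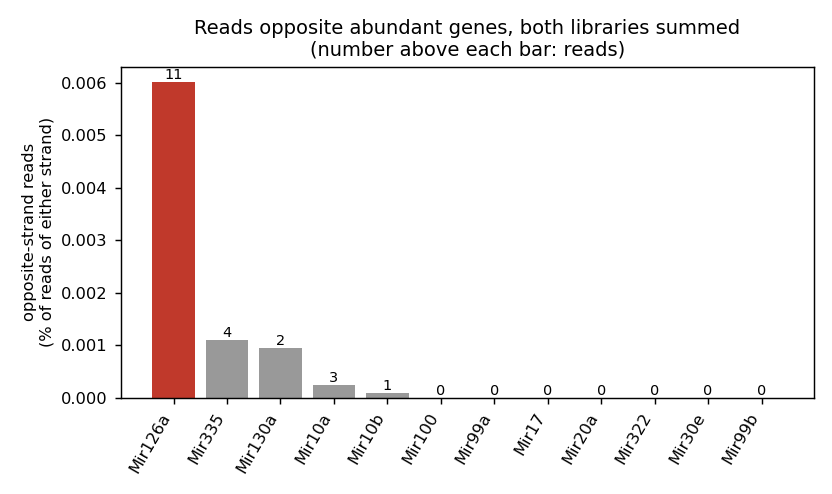
Opposite-strand reads as a percentage of reads of either strand, summed over both libraries, for the 12 genes with at least 100000 summed own-strand counts. Each bar carries its number of opposite-strand reads, and Mir126a (red) has 11 reads and 0.00601%.

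Other miRNA genes linked to blood vessels were present beside the 3 genes. Of 17 such genes listed, 14 had a row under the listed symbol. Together these 14 took 7.20% of counts in replicate 1 and 6.29% in replicate 2, which is 2.89 and 2.82 times the counts of Mir126a. Mir92a-1 of the list has its row under the symbol Mir92-1, with 19246 counts in replicate 1 and 15092 in replicate 2. These exceed the counts of Mir23a in both libraries, and they were left out of the sums. Mir130a, which represses antiangiogenic homeobox genes in endothelial cells, was the only listed gene above Mir126a. Mir322 followed at 18410 and 15641 CPM and lies in a cluster with Mir503 (689 and 428 CPM). Mir23b stood at 11992 and 8197 CPM, Mir296 at 7501 and 6718 CPM, Mir23a at 3861 and 2818 CPM, and Mir27b at 1230 and 913 CPM. Mir221 lay close to Mir155 (213 and 165 CPM), which is also abundant in immune cells, and Mir222 lay between Mir132 (118 and 97.9 CPM) and Mir27a (89.3 and 63.4 CPM) by mean level. The hypoxia-induced Mir210 reached 421 and 345 CPM, above both members of the X-linked pair. Members of the Mir23, Mir27, Mir24 and Mir218 families, 7 of the 14, share a run of at least 20 bases with another hairpin, so their counts may leave reads out.

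The exact binomial test was read for the 14 vessel genes with a row under the listed symbol, so without Mir92a-1. It called 11 in favour of replicate 1 and 0 in favour of replicate 2, and left 3 without a call. Among all tested genes, 45.3% and 7.88% were called in these directions. With TMM factors the calls split into 4 for replicate 1 and 4 for replicate 2, with 6 left uncalled, beside 18.2% and 21.6% of all tested genes. With own-strand totals the list's median log2 ratio, replicate 1 over replicate 2, stood at 0.33, beside 0.27 for all tested genes, and 0.04 with TMM factors, beside -0.02. Mir503 was 1.61-fold and Mir23b 1.46-fold higher in replicate 1, and both passed as higher in replicate 1 with TMM factors too.

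Genes of other cells found in and around vessels were lower than Mir126a. Of smooth muscle genes, Mir143 held 6327 and 5251 CPM and Mir145a 138 and 108 CPM. The pair of them summed to 0.647% and 0.536% of counts, so Mir126a had 3.86 and 4.16 times as many. Blood cell genes with a row numbered 5 and summed to 815 and 580 CPM, so Mir126a had 30.6 and 38.4 times as many. Mir142, a gene of blood cells in general, had no row used here, but the strand opposite Mir142b, where it is annotated, held 2017 and 1693 reads (544 and 417 CPM). Read from there, as Mir126b was, it stood above every blood cell gene with a row. With it the list summed to 1359 and 998 CPM, and Mir126a had 18.4 and 22.4 times as many. The erythroid gene Mir451a was at 490 and 347 CPM, with Mir144 of the same cluster at 30.2 and 21.2 CPM, the myeloid Mir223 at 266 and 191 CPM, the erythroid Mir486 at 12.9 and 12.3 CPM, and the lymphoid Mir150 at 15.6 and 9.37 CPM. None of these 5 genes was at 0. Mir486 shares a run of at least 20 bases with another hairpin, Mir3107, so its counts may leave reads out. Of these 5, the exact binomial test called 4 as higher in replicate 1 and left 1 uncalled, beside 45.3% of all tested genes called that way. With TMM factors it called 2 as higher in replicate 1 and left 3 uncalled, beside 18.2%. The part of blood cells in the counts of Mir126a, Mir221 and Mir222 was not tested.

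**Figure D5:**
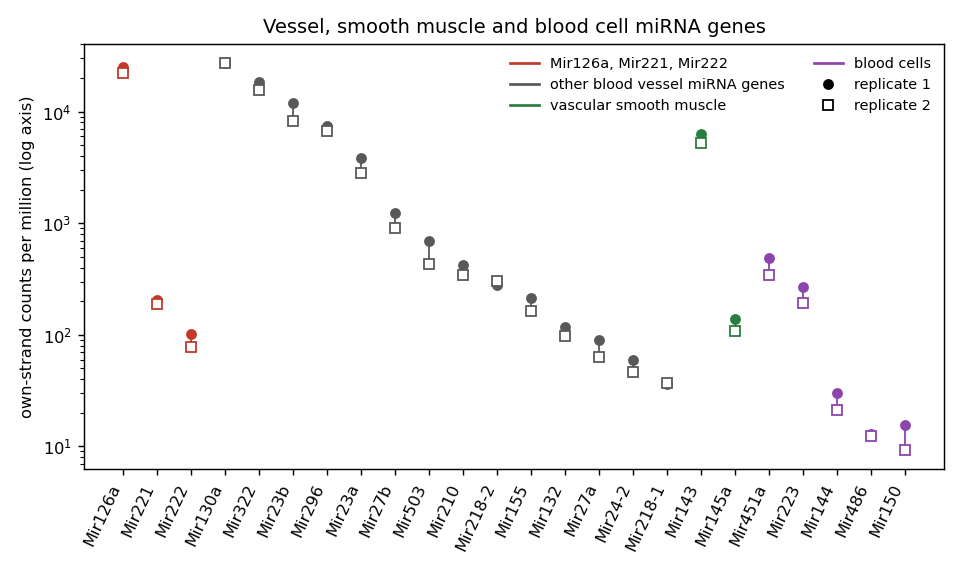
Own-strand CPM on a log axis in replicate 1 (filled circles) and replicate 2 (open squares, drawn on top) for the 3 genes (red) and for listed miRNA genes of vessels (grey), vascular smooth muscle (green) and blood cells (purple). Mir126a at 24945 and 22302 CPM lies just under Mir130a, while Mir221 and Mir222 lie among the lower vessel genes. Listed genes without a row under the listed symbol are not drawn. Among them are Mir92a-1 of the vessel list, counted under the symbol Mir92-1, and Mir142 of the blood cell list. Read from the strand opposite Mir142b, Mir142 stood at 544 and 417 CPM.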

How the data were processed

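The authors deposited raw read counts per miRNA gene for mm10 and GENCODE M4, per the file headers. Which aligner, counter and trimmer made them is not given in the sources used here. Of 3 unnamed count columns, either-strand counts equalled the sum of the other 2 in every gene, and these were read from the layout as own and opposite strand. Own-strand counts were used. Reads naming no gene (56.5% and 47.0%) were left out of totals and tests. The number of per-sample columns not tied to a sample was 0.

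Of 1973 identifiers, 1894 matched GENCODE M21. Sequences came from RefSeq (GRCm38.p6), where all 3 hairpins matched. The members, lists and tests were chosen with earlier results of these data known. Named genes were the members, Mir126b, the 3 genes nearest each in level, genes sharing a seed, miRNA genes within 10 kb and up to 6 leading genes of each list. Any gene named beyond the rule was picked with its values already seen. The labels name separate pools but do not say whether RNA was prepared separately, so spread between libraries may be partly technical. Log2 ratios carry a pseudocount of 0.5 counts. Intervals and limits for a count of 0 (3 counts) cover counting error only (the labels state no molecular identifiers). Tests were checked on simulated data. In R 4.3.3, edgeR 4.0.16 gave the TMM factors and DESeq2 1.42.0 its size factors, both from genes whose counts summed to at least 10. All else was computed in Python 3.11.15 with scipy 1.17.1.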

Additional observations from a re-analysis of the deposited data

How the results depend on the processing

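The levels moved with the total used. Per 1000000 of all reads, mean levels were 11331 for Mir126a, 93.8 for Mir221 and 42.7 for Mir222. Per 1000000 counts outside the 10 most abundant genes, a total that leaves out Mir126a itself, they were 55170, 457 and 209. Leaving out 1 replicate gave 22302 to 24945 CPM for Mir126a, 188 to 203 CPM for Mir221, 78.4 to 101 CPM for Mir222, 2.01 to 2.40 for the ratio of Mir221 to Mir222, and 0.00432% to 0.00774% for the opposite-strand share at Mir126a. The log2 ratio of replicate 1 over replicate 2 for Mir126a reversed from 0.16 to -0.13 with TMM factors, -0.11 with DESeq2 size factors, -0.12 with all reads as the total and -0.05 without the 10 most abundant genes. That of Mir221 went from 0.11 to -0.18, -0.16, -0.18 and -0.10 in the same order. That of Mir222 went from 0.37 to 0.08, 0.10, 0.08 and 0.16. Under these alternatives Mir221 passed the exact binomial test with TMM factors (adjusted p = 0.0421) and with all reads as the total (adjusted p = 0.0480). Mir222 passed under none of them. The cause of these shifts was not tested. Counts of either strand, minimums of 1 or 100 summed counts and a pseudocount of 1 kept the direction and the call of all 3 genes. The number of genes past the test was 177 to 245 over its alternatives, against 236. Pairs within 1 kb or 50 kb gave adjusted p = 0.0862 and 0.0891 for Mir221 over Mir222 by Fisher's exact test. Reading listed genes without a row from the opposite strand, an alternative chosen after seeing the data, moved the ratio of Mir126a to the blood cell list from 34.5 to 20.4 (means of 2 libraries) and left the vessel and neural ratios within their spread. A minimum of 100 counts on each strand left out Mir126a, whose 11 opposite-strand reads set the precision of that share. No paired analysis was possible because there was 1 group. With 2 libraries, a permutation test of the libraries cannot go below a two-sided p of 0.5.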
